A study of Mus musculus with 6 samples.

Results

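The RNA levels of untreated wild type mouse prefrontal cortex are described here from 3 wild type samples, out of 6 samples in the series. The members are the samples titled as wild type, and no genotype contrast enters. The mice were male, of ICR stock, an outbred line, and 3 to 4 months old. The series also holds prefrontal cortex of mice that lack Nrf2, the transcription factor encoded by Nfe2l2, and those samples are not analysed here. Total RNA was amplified, labelled with the dye Cy3 and hybridised to 1 array per sample. Nothing in the labels ties the 3 samples to separate animals, so the spread between the 3 arrays may be technical, biological or both.

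The prefrontal cortex holds glutamatergic pyramidal neurons in layers, GABAergic interneurons, astrocytes, oligodendrocytes and their precursors, microglia and blood vessels. Its RNA includes messenger RNAs, circular RNAs (circRNAs) and long transcripts that code for no protein (lncRNAs). A circRNA forms when a downstream splice donor is joined back to an upstream splice acceptor, mostly within coding genes, and brain is known to be rich in such RNAs. In bulk tissue, fewer cells of a type and less RNA per cell cannot be told apart.

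A level is the log2 processed signal of a probe minus the 75th percentile of its array, so 0 is the brightness that 25 in 100 probes exceed. The 75th percentiles were signals of 279, 280.3 and 278. Levels rank probes by brightness and are not numbers of molecules, since probes differ in how well they bind. Values are means ± SD over the 3 arrays (n = 3). A probe is called detected when the scanner software set it well above background on all 3 arrays, which 103089 of 150305 probes were (68.6%). The arrays correlated at r between 0.9911 and 0.9945 across the detected probes, which are not independent replicates, and arrays 2 and 3 were the closest pair. Outlier flags removed 186 probes on array 1, against 27 and 36 on arrays 2 and 3.

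Among the 3 RNA classes, coding probes were the brightest at the middle of their distribution and circRNA probes were the most often detected. Of 47074 coding probes 81.8% were detected, of 57067 lncRNA probes 45.6% and of 37852 circRNA probes 89.9%. The median level was −0.12 for coding, −4.97 for lncRNA and −1.38 for circRNA probes. On arrays 1, 2 and 3 the coding median exceeded the lncRNA median by 4.77, 4.75 and 4.85, a mean of 4.79 ± 0.053, and the circRNA median by 1.27, 1.22 and 1.30, a mean of 1.26 ± 0.042. Both gaps were many times the spread between arrays. With under 50% of lncRNA probes detected, the lncRNA median lies among values that carry only a bound, and the first gap was 2.24 with normexp background correction and quantile normalization. The circRNA levels lay closest together, with an interquartile range of 2.86 log2 units against 5.50 for coding and 4.22 for lncRNA probes. The bright end was mostly coding: 851 of the 1000 brightest probes were coding, 58 lncRNA and 72 circRNA, whereas coding probes were 31.3% of all probes.

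**Figure D1:**
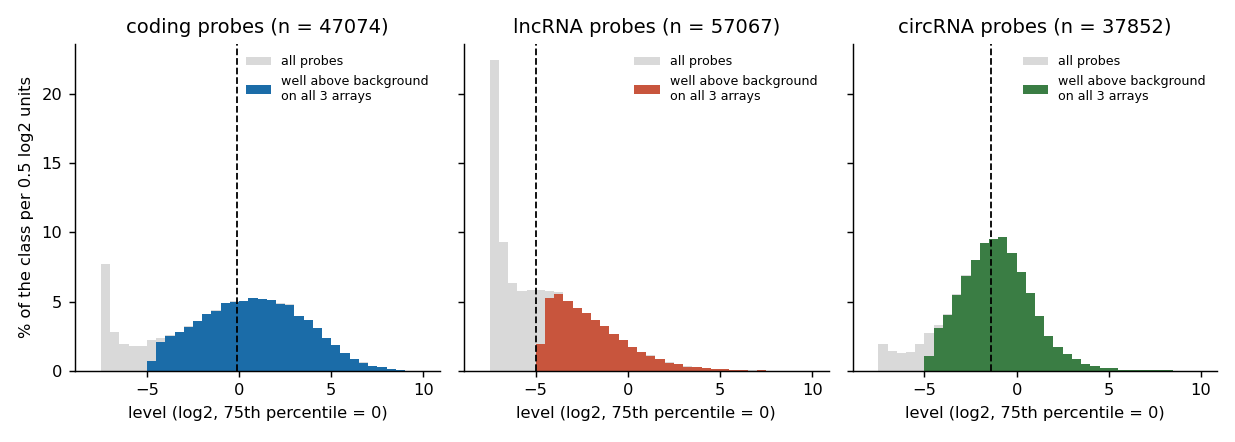
Distribution of levels (x axis, log2 units, the array's 75th percentile at 0) as a percentage of each class (y axis, per 0.5 log2 units), with detected probes in colour, all probes in grey and the class median dashed. The lncRNA probes pile up at the low end, with a median of −4.97, while most circRNA probes form a single narrow peak around −1.38.

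The lncRNA class was not uniform. The 1393 probes with RefSeq accessions had 58.1% detected and a median of −3.62, and the 55674 probes of the NONCODE collection 45.3% and −5.00. A level near −5 is also where the detection call ends: the lowest detected probe lay at −4.98, −5.04 and −5.15 on the 3 arrays. Probes below it carry only a bound. Level also differed with the base composition of the probe, and not alike in each class. For lncRNA probes the median went from −5.67 at a G+C content of up to 35% to −3.26 between 50 and 55%. For circRNA probes these medians were −2.67 and −1.08, and for coding probes −0.01 and −0.17. What the composition adds to the class differences was not tested.

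Over the 20481 coding genes, taken by their brightest probe, 84.6% were detected and the median level was 0.93. No probe of 2268 genes (11.1%) was well above background on any array. Probes of a gene often disagreed: of 17897 genes with several probes, 9471 (52.9%) had probes more than 2 log2 units apart. Gene levels below are those of the brightest probe.

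The 15 brightest coding genes with values on all 3 arrays included synaptic and peptide genes of neurons, mitochondrial and glycolytic enzymes and astrocyte genes. Lars2, a mitochondrial leucyl-tRNA synthetase, was brightest at 9.59, 9.60 and 9.61 on the 3 arrays. Next came Aldoa, a glycolytic aldolase, with 9.24, 9.22 and 9.37, and Snap25, a presynaptic fusion protein, with 9.19, 9.19 and 9.27. Lars2 stood above both on every array, while the ranges of Aldoa and Snap25 overlap. Its other probe was at 4.14, and the second Snap25 probe at 4.60, so neither rank holds for every probe of the gene. Cox6a1 (9.03 ± 0.03) and Cox8a (8.53 ± 0.02) are subunits of cytochrome c oxidase, and Chchd2 (8.67 ± 0.01) is a mitochondrial protein. Sparcl1 (8.95 ± 0.07) is a matrix protein secreted by astrocytes. Cck (8.82 ± 0.15) encodes the peptide cholecystokinin, Cpe (8.64 ± 0.03) trims peptide hormones, and Kif5a (8.73 ± 0.03) is a neuronal kinesin motor. Nrgn (8.51 ± 0.13) and Camk2n1 (8.58 ± 0.11) bind calmodulin and inhibit its kinase CaMKII, respectively. Rgs6 (8.65 ± 0.01) damps G protein signals, Ptgds (8.63 ± 0.11) makes prostaglandin D and Gabarapl1 (8.58 ± 0.07) serves autophagy.

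Of the neuronal lists, the synaptic vesicle genes lay highest. All 18 synaptic vesicle genes were detected, beside 84.6% of all coding genes. Their median was 7.05, by the brightest probe the second of the 39 coding lists after ribosomal proteins. With the median over the probes of a gene it was 4.93, below housekeeping genes (6.08) and nuclear respiratory chain genes (5.98). Snap25 was followed by Cplx2 (7.99 ± 0.04), a complexin, Rab3a (7.96 ± 0.04), a vesicle GTPase, and Syt1 (7.94 ± 0.07), the calcium sensor of release. The 11 glutamatergic markers were all detected at a median of 4.06. Nrgn, Camk2a (7.54 ± 0.16), Grin1 (7.02 ± 0.07) and Slc17a7 (5.79 ± 0.13), the cortical vesicular glutamate transporter, led them, and Slc17a6, the transporter more usual in thalamus, was dimmest (1.45 ± 0.27). Each of 15 GABAergic markers was detected as well, at a median of 5.07. Cck, Sst (7.17 ± 0.12), Lamp5 (6.90 ± 0.15) and Gad1 (6.60 ± 0.09), which makes GABA, were the brightest, and Adarb2 (−1.64 ± 0.01) the dimmest. For Cck the lowest of its probes was at −1.52, so its level depends on the probe.

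Receptors and channels were less bright than the vesicle machinery. The 20 glutamate receptor and scaffold genes were all detected, with Camk2a and Camk2b (7.43 ± 0.03) at the top. Among ionotropic subunits Grin1 and Gria2 (6.08 ± 0.03) were the brightest. Of 16 GABA A receptor subunits 14 were detected (87.5%), near the 84.6% of all coding genes. Gabrb2 (5.68 ± 0.11), Gabra3 (5.47 ± 0.05) and Gabrb1 (5.35 ± 0.11) were among the brightest, and Gabra6, a subunit of cerebellar granule cells, was well above background on no array (−7.14 ± 0.19). The 22 voltage-gated channel genes were all detected. The sodium channel subunit Scn8a (6.60 ± 0.06) was among the brightest, and the muscle calcium channel Cacna1s was lowest (−0.39 ± 0.08). Monoamine receptors had a median of 0.84, close to that of all genes. Their brightest members were the adrenergic Adra1b (3.52 ± 0.13) and Adrb1 (2.65 ± 0.12), the serotonin receptor Htr7 (2.05 ± 0.24) and the dopamine receptor Drd3 (1.69 ± 0.04), and Htr4 the dimmest (−3.34 ± 0.60). The other Drd3 probe, at −6.43, was not detected, so its rank depends on the probe. Drd1, with both probes detected, was at 1.64 ± 0.17. Neuropeptide precursors ranged widely, from Cck, Sst, Npy (6.32 ± 0.31) and Vip (5.07 ± 0.00) to the hypothalamic Agrp (−3.93 ± 0.13).

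By the brightest probe, astrocyte markers had a higher median than the GABAergic and glutamatergic lists. Vascular markers had the lowest of the glial and vascular lists. With the median over the probes of a gene, the astrocyte list stood at 3.61, below the GABAergic list at 3.93 and above the glutamatergic list at 3.48. All 12 astrocyte markers were detected, beside 84.6% of all coding genes. They had a median of 5.42 and were led by Apoe (7.66 ± 0.01), a lipid carrier, the glutamate transporter Slc1a2 (7.48 ± 0.04), Aldoc (7.36 ± 0.09) and Clu (6.56 ± 0.06). Aqp4, the water channel of astrocyte endfeet, was their dimmest (2.37 ± 0.19). The 12 oligodendrocyte markers had a median of 4.16, with the myelin genes Mbp (5.92 ± 0.10), Cnp (5.49 ± 0.16) and Cldn11 (4.87 ± 0.25) among the brightest and Ermn (1.18 ± 0.12) at the bottom. The list of oligodendrocyte precursors had a median of 2.38, led by Olig1 (4.95 ± 0.19). The 14 microglial markers stood at 3.47, and the complement gene C1qa (5.67 ± 0.10), Csf1r (5.10 ± 0.10) and Cx3cr1 (3.91 ± 0.05) were among the brightest. The endothelial list stood at 2.09, led by the glucose transporter Slc2a1 (5.25 ± 0.06), and the mural list at 1.56, led by Vtn (5.04 ± 0.16).

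Both cortical layer lists and several lists of neighbouring regions were measured. All 9 upper layer markers were detected (Lmo4 7.35 ± 0.16, Rasgrf2 5.93 ± 0.06, Otof −0.46 ± 0.20 at the bottom), and all 11 deep layer markers (Crym 5.88 ± 0.20, Tle4 4.65 ± 0.05, Foxp2 0.12 ± 0.02 at the bottom). Of all coding genes 84.6% were detected. The median of the upper layer list was 3.31, and both lists had medians above the 0.93 of all coding genes. Of 12 striatal markers 11 were detected, with a median of 2.91. Penk (4.96 ± 0.08), Rasd2 (4.53 ± 0.13), Ppp1r1b (3.79 ± 0.08) and Tac1 (3.32 ± 0.24), which cortical cells also express, led them, whereas Six3 was well above background on no array (−6.76 ± 0.37) and Drd2, chosen after its value was seen, was at −2.64 ± 0.07. The list for hippocampus, thalamus and midbrain had a median of 0.03, from Wfs1 (5.14 ± 0.15) to the serotonin transporter Slc6a4 (−4.67 ± 0.27). Choroid plexus markers had a median of −2.62. Of these, Enpp2 (4.66 ± 0.12), also a gene of oligodendrocytes, was high and Tmem72 lowest (−4.71 ± 0.22). Meningeal fibroblast markers stood at 2.24, with Ptgds far above Igf2 (3.78 ± 0.23), Slc13a4 (3.24 ± 0.18) and Dcn (3.14 ± 0.30).

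Genes of other tissues give the measured floor for what a detection call means. Liver genes had a median of −2.85 with 10 of 15 detected, pancreas genes −3.22 with 12 of 14, testis genes −1.69 with 14 of 15 and skeletal muscle genes −0.03 with 14 of 14. These counts stand beside 84.6% for all coding genes, so a detection call by the brightest probe did not separate brain genes from genes of other organs. The medians of all 4 lists lay below the median of all genes, 0.93. Prm2 (−0.41 ± 0.03), a sperm protamine, and the pancreatic protease gene Ctrb1 (2.17 ± 0.08) were among the members called detected. The liver genes Apoa1 (−6.68 ± 0.52), Apoa2 (−6.90 ± 0.67) and Cyp7a1 (−6.18 ± 0.96) and the meiotic gene Sycp1 (−6.79 ± 0.50) were well above background on no array. Of 14 olfactory and vomeronasal receptor genes 7 were detected, at a median of −4.39. Counted over single probes, 37.1% of liver, 70.4% of pancreas, 73.5% of testis, 86.1% of skeletal muscle and 32.1% of olfactory receptor probes were detected, against 81.8% of all coding probes and 100% for synaptic vesicle genes.

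**Figure D2:**
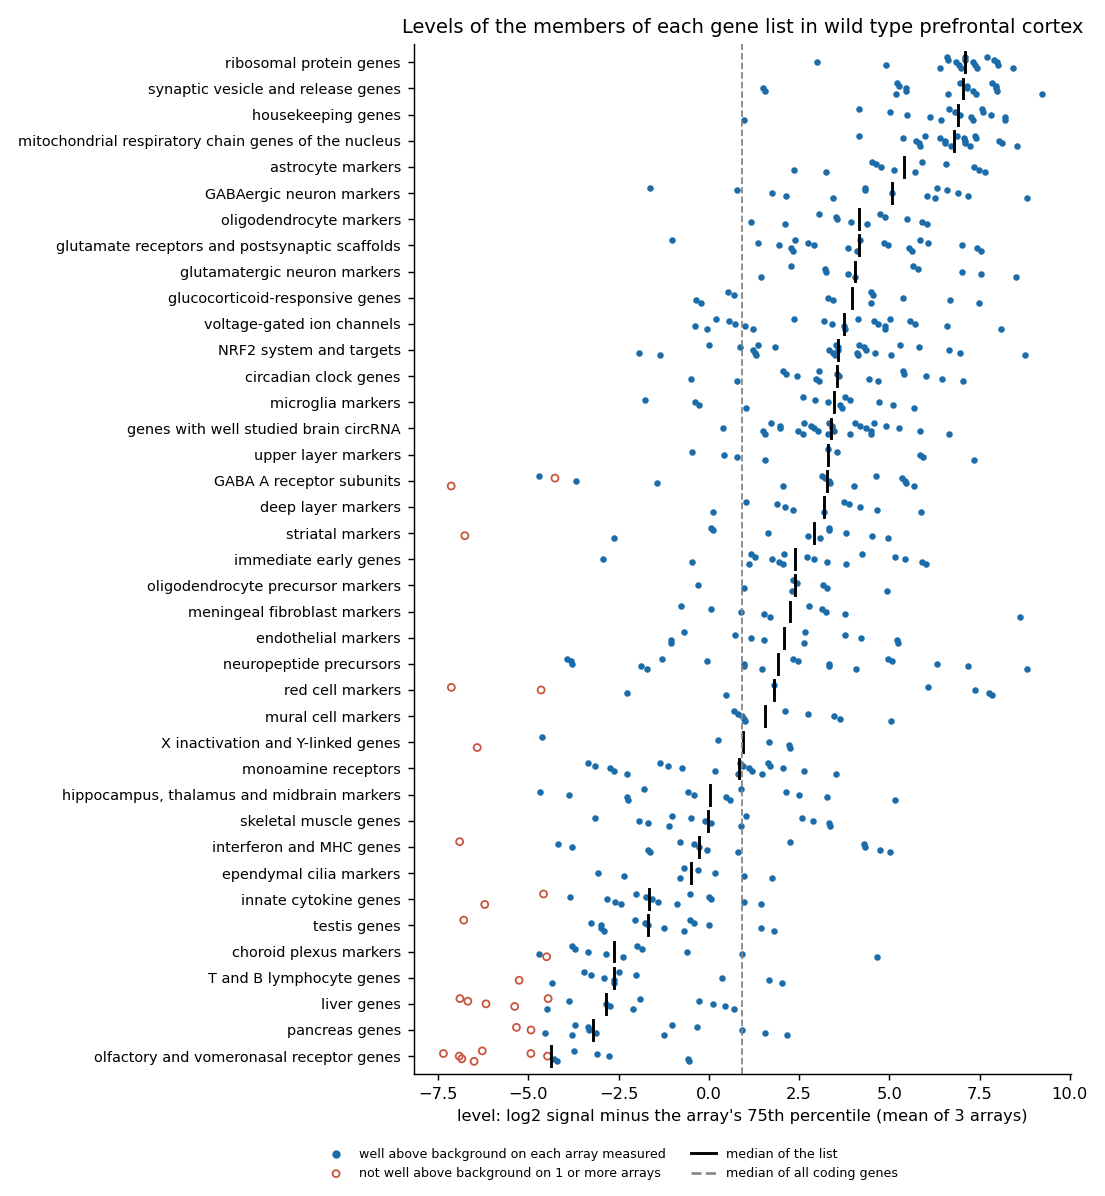
Mean level of each measured member of 39 gene lists (x axis, log2 units, the array's 75th percentile at 0), with lists ordered by their median (black bar). Ribosomal, synaptic vesicle, housekeeping and respiratory chain genes lie near 7, while liver, pancreas and olfactory receptor genes lie mostly under −2 and hold many of the open circles, members not well above background on every array.

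The labelled sex was checked against Y-linked genes and Xist. Ddx3y (2.25 ± 0.11), Eif2s3y (2.22 ± 0.11), Uty (1.66 ± 0.12) and Kdm5d (0.25 ± 0.11) were detected on every array. Xist, the RNA that coats the inactive X chromosome of females, was well above background on no array (−6.42 ± 0.80). Globin genes of red cells were among the brightest. Hba-a2 gave 7.74, 8.06 and 7.74, Hba-a1 7.67, 7.97 and 7.61, and Hbb-bs 7.26, 7.63 and 7.27 on arrays 1, 2 and 3, and array 2 was the highest for each of these globins. Hba-a1 and Hba-a2 are near-identical copies, so the signals of these genes may be shared. Epb42, a red cell membrane protein gene, was well above background on no array (−7.14 ± 0.11).

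Genes that build proteins and energy were bright. The 18 ribosomal protein genes were all detected, where 84.6% of all coding genes were. Their median was 7.10 and their median SD 0.07, from Rplp1 (8.42 ± 0.04) to Rpl4 (3.01 ± 0.04). All detected probes above a level of 4 had a median SD of 0.0807. By small steps, 15 of the 18 genes were lowest on array 1 and 12 highest on array 2, where 32.1% and 21.3% of all coding genes were. The 16 housekeeping genes stood at 6.89, with Ubb (8.21 ± 0.08), Gapdh (8.20 ± 0.06) and Eef1a1 (7.60 ± 0.04) among the brightest and Tbp, a basal transcription factor, far below at 0.99 ± 0.12. The nuclear genes of the respiratory chain stood at 6.79, led by Cox8a, Cox4i1 (8.13 ± 0.02), Atp5b (8.04 ± 0.08) and Cox5a (7.40 ± 0.03).

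The NRF2 system, whose transcription factor the series deletes in its other samples, had a median of 3.57 in wild type cortex, against 0.93 for all coding genes. By the brightest probe 26 of 27 genes were detected, beside 84.6% of all coding genes. For the other, the ferritin heavy chain Fth1, that probe was flagged on array 1 and gave 8.77 and 8.76 on the other arrays, and a second probe, at 8.63, was well above background on all 3. Nfe2l2 itself was at 1.22, 1.26 and 1.21. Its inhibitor Keap1 (3.57 ± 0.04) and the ubiquitin ligase scaffold Cul3 (4.59 ± 0.06) were brighter probes, although brightness does not give a ratio of molecules. The small Maf partners were Mafg (3.53 ± 0.01), Mafk (1.84 ± 0.51) and Maff (−1.94 ± 0.34), and the competing repressor Bach1 was at 0.85 ± 0.13. For Mafk, array 1 was lower than the others, with 1.27 against 1.99 and 2.25.

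The target genes of NRF2 ranged from 8.76 to −1.35. Fth1, the glutathione transferase Gstm1 (6.95 ± 0.24), the autophagy receptor Sqstm1 (6.65 ± 0.09), the ferritin light chain Ftl1 (5.82 ± 0.09) and Gsta4 (5.30 ± 0.03) were brightest. The redox enzymes Txn1 (5.04 ± 0.07), Prdx1 (4.30 ± 0.06), Srxn1 (4.10 ± 0.11), Txnrd1 (3.58 ± 0.19) and Gsr (3.43 ± 0.02) lay between 3 and 6, with Ephx1 (4.35 ± 0.09) and the NADPH sources Me1 (4.15 ± 0.04) and G6pdx (4.12 ± 0.08). The other Txn1 probe, at −5.40, was not detected, so the level of Txn1 depends on the probe. In glutathione synthesis, the cystine transporter Slc7a11 (3.33 ± 0.25) and the catalytic subunit Gclc (3.49 ± 0.17) were above the modifier subunit Gclm (0.01 ± 0.06) by the brightest probe. The lowest Slc7a11 probe was at −2.61, so its place above Gclm depends on the probe. Aox1 (1.35 ± 0.15), Blvrb (1.30 ± 0.15) and the haem oxygenase Hmox1 (1.27 ± 0.12) were near the median of all genes. The dimmest target was Nqo1, a quinone reductase often used as a readout of NRF2, at −1.53, −1.26 and −1.27.

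The brightest named non-coding probes included ribosomal RNAs, lncRNAs and transcribed pseudogenes. The probes of Rn18s (9.58 ± 0.02) and Rn28s1 (7.40 ± 0.05) detect ribosomal RNA, and they fall in the lncRNA class here because it was drawn by accession. Norad, a lncRNA that binds Pumilio proteins, gave 8.44, 8.60 and 8.61. Meg3, an imprinted lncRNA, gave 7.02, 7.05 and 7.05, and Malat1, a nuclear lncRNA, 6.60, 6.72 and 6.52. Snhg11, a small nucleolar RNA host gene whose probe carries a coding accession, was at 7.27 ± 0.12. Peg13 (6.36 ± 0.08), 9530080O11Rik (6.53 ± 0.07) and E130304I02Rik (5.76 ± 0.12) were next among annotated lncRNAs. Of the 15 brightest RefSeq non-coding entries, Gm6498 (7.73 ± 0.08), 3000002C10Rik (7.44 ± 0.06), Gm6607 (7.17 ± 0.07), Gm10653 (7.06 ± 0.18), Gm5069 (6.95 ± 0.10) and Pisd-ps3 (6.41 ± 0.11) are transcribed pseudogenes, whose probes may also read their parent genes. The probes with a database number only included NONMMUT110472 (9.62 ± 0.02), the brightest probe of all, and NONMMUT100794 (9.24 ± 0.02).

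Of 22 lncRNAs listed by name 18 were detected, at a median of 2.25. Xist, the cardiac Mhrt (−6.86 ± 0.93) and the lung and gut lncRNA Fendrr (−7.15 ± 0.37) were well above background on no array. Of the 1064 RefSeq probes annotated as lncRNA 54.7% were detected, and of the 208 of transcribed pseudogenes 61.1%.

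The brightest circRNA probes came mainly from a few loci, and the probe sequences of these are shown because they overlap or repeat. Probes are 60 bases long. The circle best known from brain is Cdr1as, an RNA made opposite to Cdr1 that holds many sites for the microRNA miR-7. The mature miR-7 sequences of RefSeq (GRCm38.p6) are given first, with the seed, bases 2 to 8, in capitals, because the bases that pair with it recur in the brightest circRNA probes:
mmu-miR-7a-5p: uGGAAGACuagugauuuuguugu
mmu-miR-7b-5p: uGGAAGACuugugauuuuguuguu

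A total of 9 circRNA probes fell in the Cdr1 interval on chromosome X (positions in the probe names, read as GRCm38). In the next lines the seed match GTCTTCC is in capitals, for the brightest short circle, an overlapping one, a circle of 2926 bases, and the longest and only dim one:
Cdr1-1, chrX:61183701-61183843: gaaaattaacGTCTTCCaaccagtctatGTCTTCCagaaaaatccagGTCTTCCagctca
Cdr1-4, chrX:61183680-61183825: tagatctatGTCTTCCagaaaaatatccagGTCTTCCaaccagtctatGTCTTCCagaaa
Cdr1-8, chrX:61183248-61186174: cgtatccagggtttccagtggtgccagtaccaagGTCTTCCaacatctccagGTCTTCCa
Cdr1-9, chrX:61181550-61186174: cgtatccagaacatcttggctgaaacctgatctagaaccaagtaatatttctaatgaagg

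Cdr1-1 gave 8.32, 8.44 and 8.33, Cdr1-4 gave 8.04, 8.13 and 8.06, and Cdr1-8 gave 7.63, 7.73 and 7.62. Cdr1-9, which shares the downstream end of Cdr1-8 and holds no match, gave 0.04, 0.21 and 0.17. The first 7 probes, each with 3 matches, lay between 8.02 and 8.37, and the dim probe lay more than 7 log2 units below every other. The coding probe of Cdr1 itself was at 0.36.

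The match is not particular to Cdr1 probes. It occurred in 0.489% of all circRNA probes, on the strand of the probe, and the 177 probes outside the Cdr1 interval that hold it had a median level of 0.74 against −1.39 for probes without it. Coding probes with it had a median of 1.53 against −0.12, and lncRNA probes −0.46 against −4.99. For the reverse complement GGAAGAC the medians with the motif were −1.86, −1.04 and −6.19 for circRNA, coding and lncRNA probes. The motif ranked 8 of 7990 7-base motifs held by at least 100 circRNA probes, by median level, and by the same count 22 of 9988 in coding and 12 of 10600 in lncRNA probes. A match is a description of letters in a probe, and how it bears on the signal was not tested.

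The other leading group of circRNAs came from Cdon, which encodes a cell surface receptor of hedgehog signalling, on chromosome 9. A total of 8 Cdon circRNAs start at the same acceptor, and the positions in their names differ only at the far end. Their probes are shown because they share 51 bases, in capitals, and differ in the first 9:
Cdon-1, chr9:35452045-35464228: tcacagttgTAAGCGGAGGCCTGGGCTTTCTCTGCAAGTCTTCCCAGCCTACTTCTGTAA
Cdon-5, chr9:35452045-35455466: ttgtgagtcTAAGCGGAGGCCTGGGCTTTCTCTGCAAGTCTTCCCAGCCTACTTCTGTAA
Cdon-8, chr9:35452045-35478689: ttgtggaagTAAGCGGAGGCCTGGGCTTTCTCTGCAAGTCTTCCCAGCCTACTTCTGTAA

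Cdon-1 gave 7.97, 8.05 and 7.97, Cdon-5 gave 7.98, 7.95 and 7.95, and Cdon-8 gave 7.82, 7.84 and 7.87. Cdon-1 was the brightest of the 8 probes, the dimmest was at 7.84, and the SD among them was 0.054. The 3 other Cdon circRNAs, which start elsewhere, lay between −6.96 and −3.26, and the brightest coding probe of Cdon was at 0.65. The shared bases are also a stretch in which the miR-7 seed match appears 1 time.

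**Figure D3:**
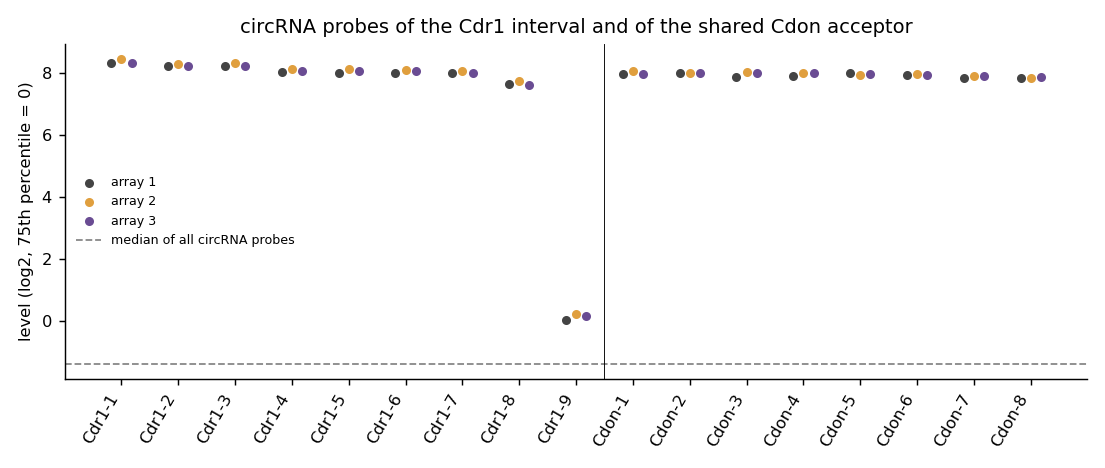
Level on each array (y axis, log2 units, the array's 75th percentile at 0) of the 9 circRNA probes of the Cdr1 interval and the 8 that share the Cdon acceptor, with the median of all circRNA probes dashed. All lie between 7.6 and 8.5 except Cdr1-9, which lies near 0 on each array.

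Probes of circRNAs that share an end were often not independent. Among 7201 pairs with the same acceptor, 38.1% of probes shared a run of 20 or more bases at the 3′ end, with a median run of 52 bases. Among 7132 pairs with the same donor, 25.6% shared only 8 to 12 bases at the 5′ end. In the 756 acceptor families whose probes all share at least 20 bases, 2734 circRNAs in total, the median SD among members was 0.113. It was 0.689 in the 2285 acceptor families in which some probes share fewer bases. For the 2754 families that share a donor it was 1.08, and over all circRNA probes the SD was 2.33.

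Apart from those of Cdr1 and Cdon, 7 probes were among the 15 brightest circRNA probes. A pair of Cox6a1 probes led at 8.49 ± 0.003 and 8.45 ± 0.02. A probe at chr17:39845855-39845953, in no gene of the reference table, was at 8.43 ± 0.01. That table has no entry for the ribosomal RNA genes Rn18s and Rn45s, so the position may lie in a gene that it lacks. Probes in Mknk2, a kinase of translation (8.25 ± 0.03), Cdh12, a cadherin (8.10 ± 0.07), and Tubb2a, a tubulin (8.01 ± 0.07), followed. A probe within Malat1 was at 8.05 ± 0.07.

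CircRNA positions lay inside a coding gene in 97.3% of cases, and 36666 had a single host gene, 6990 genes in all. The hosts with most detected circRNA probes were Ryr2 (83 of 84), a calcium release channel, Ptk2 (79 of 82), the focal adhesion kinase, Utrn (68 of 70), a dystrophin relative, Fn1 (64 of 64), the matrix protein fibronectin, and Adgrb3 (63 of 65), an adhesion receptor of synapses. Nbas (59 of 61), Vwa8 (57 of 58), Anks1b (56 of 57), a postsynaptic protein, Nf1 (55 of 56), a Ras inhibitor, and Lrrc7 (53 of 54), a postsynaptic scaffold, came next. Detection was 89.9% over all circRNA probes, and each of these hosts lay above that share. The hosts were ranked by their count of detected probes, which favours high shares. Within Ryr2 the circRNA levels ran from −7.00 to 2.78, and the median was −0.33.

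The level of a circRNA probe went with that of its host. Across 36530 circRNAs of 6954 hosts, Pearson's r between circRNA level and the host's brightest coding probe was 0.482 and Spearman's rho 0.466, given as a description, since circRNAs of a host share its value and all probes share the arrays. By host level from the lowest to the highest of 4 equal groups, the median circRNA level was −2.74, −1.65, −1.13 and −0.04 and the share detected 78.1%, 92.2%, 94.8% and 96.9%. The labels describe no step that removes linear RNA, and how much linear host RNA adds to a circRNA probe was not tested. Of genes with well studied brain circRNAs, the brightest hosts were Rtn4 (6.65 ± 0.08), Dlgap1 (5.85 ± 0.31), Fbxw7 (5.26 ± 0.10) and Map2k4 (4.90 ± 0.07). In Ankrd17, chosen after its values were seen, neither of 2 circRNA probes was detected, while the gene was at 2.46 ± 0.05. In Homer1, an activity-regulated synaptic scaffold gene chosen likewise, 9 of 9 were detected and the brightest circRNA probe, at 3.84, was above the brightest coding probe, at 2.91 ± 0.22.

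Levels were steady between the 3 arrays for most probes. Over detected probes the median SD was 0.116 log2 units, 0.110 for coding, 0.146 for lncRNA and 0.104 for circRNA probes. It fell with level, from 0.228 between −6 and −4 to 0.0807 above 4. Of the detected probes 2865 spanned more than 1 log2 unit (2.78%), 2.75% of coding, 4.20% of lncRNA and 1.59% of circRNA probes. Array 1 stood apart from the other arrays most often, as the high one for 772 of these probes and the low one for 804. Without array 1 the count was 1090, without array 2 1921 and without array 3 1775. A range over the remaining pair cannot exceed the range over all 3 arrays, so lower counts were in part fixed in advance.

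The 10 coding genes with the widest range fell into distinct patterns. Jakmip1, a microtubule-linked protein of neurons, gave −2.95 on array 1 against 3.74 and 3.91, a gap of more than 6 log2 units. Its other 2 probes gave 1.22, 1.12 and 1.37, and 0.60, 0.56 and 0.47, so array 1 was low for 1 probe of 3 only. Krt88, Bud13, Usp10 and Man1a showed the same: array 1 was low by more than 4 units for 1 probe, while every other probe of the gene spanned under 0.4. Usp10, a deubiquitinase, had −1.99, 3.35 and 3.41 at that probe and −0.89, −0.79 and −0.95 at the other. Zfp1 has 1 probe, with −2.23, 2.38 and 2.45.

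In a separate group, all probes of a gene moved together. The neutrophil genes S100a8, S100a9 and Ngp were low on array 1. S100a9 gave −0.54, 2.92 and 3.95 with its first probe and −0.87, 2.64 and 3.71 with its second. S100a8 gave −2.03, 1.70 and 2.66, and its second probe −2.86, 0.85 and 1.91. For Ngp the first probe gave −4.25, 0.06 and 1.22 and the second, well above background on 2 arrays, −7.10 on array 1 and −2.79 on array 2. All 3 genes were lowest on array 1 and highest on array 3 with each probe. Ifit1bl1, an interferon-induced gene family member, was low on array 3, at 0.10, 0.07 and −3.75.

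**Figure D4:**
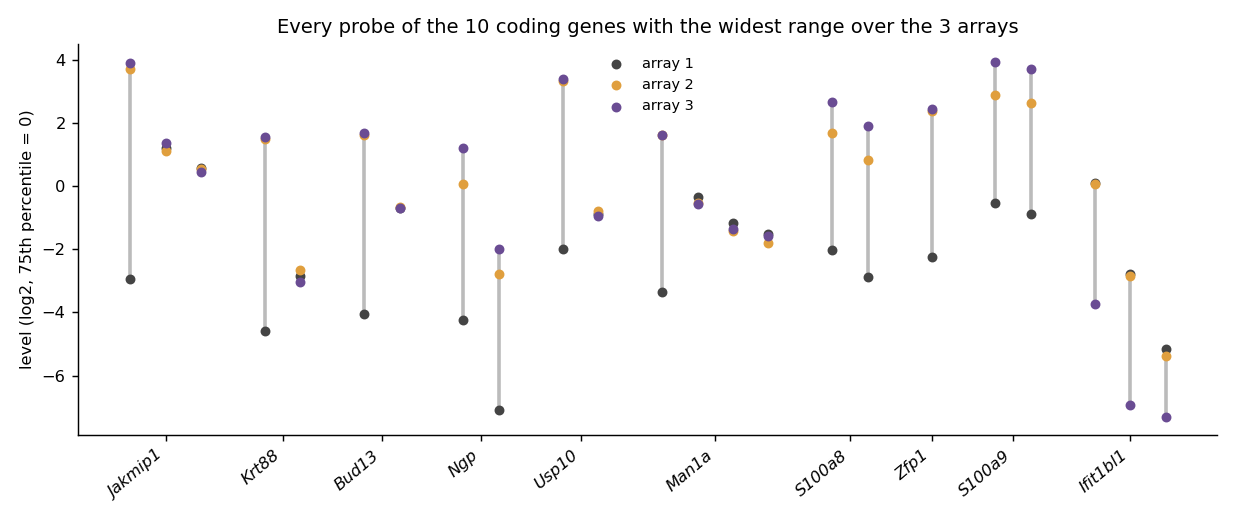
Level on each array (y axis, log2 units, the array's 75th percentile at 0) of every probe of the 10 coding genes with the widest range, each column being 1 probe and the grey bar its range. For Jakmip1, Krt88, Bud13, Usp10 and Man1a a single probe is low on array 1, whereas for Ngp, S100a8 and S100a9 both probes are.

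Array 1 was also the low one for most of the 5 widest circRNA and 5 widest lncRNA probes. This did not hold for wide non-coding probes in general. Of 1093 lncRNA probes that spanned over 1 log2 unit, array 1 stood apart as the high one for 289 and as the low one for 215. Of 541 such circRNA probes it was the high one for 120 and the low one for 178. The circRNA probe with the widest range lies in Myt1l, a neuronal transcription factor gene, and gave −4.75, 2.31 and 2.37. The next circRNAs, in Mtf2, Dusp6, Kdm5c and Ttbk2, were each low on array 1 as well, for example Mtf2 with −3.19, 1.48 and 1.59. The widest lncRNA probe, NONMMUT078630, gave −3.36, 3.38 and 3.34. Of the 5 widest lncRNA probes 4 were low on array 1, and the other was low on array 3. The 5 narrowest coding genes were Nr2c2 (0.77), Olfr944 (−1.41), Vip (5.07), Dpagt1 (2.95) and Tle5 (6.07), whose ranges were all under 0.005. Of the 2 Olfr944 probes only this one was detected, and the other spanned over 1 log2 unit.

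Some gene groups differed between the arrays as a group. Immediate early genes, which respond to neuronal activity within minutes to hours, had a median SD of 0.38, against 0.11 for all coding genes. Arc gave 6.17, 5.39 and 6.50, Nr4a1 5.71, 5.63 and 6.33, Junb 5.18, 5.25 and 5.89, and Egr1 5.14, 4.75 and 5.54. Array 3 was the highest for each of these 4 genes. Of the 18 members 15 were lowest on array 2 and 14 highest on array 3, where 46.5% and 40.6% of all coding genes were. Arc, Fos and Egr2, named for this after their values were seen, spanned over 1 log2 unit, 3 of 18 members (16.7%) against 2.82% of all detected genes.

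Marker lists of cell types also took an order among the arrays, by smaller steps. Meningeal fibroblast markers were highest on array 1 for 8 of 10 genes and lowest on array 3 for 8 of 10. The collagens Col1a1 (1.86, 0.75 and 0.03) and Col3a1 (0.26, −1.07 and −1.47), named after their values were seen, spanned the most. Oligodendrocyte markers were highest on array 1 for 10 of 12 genes, with median deviations of 0.19, −0.05 and −0.16 from the gene's own mean. For microglial markers array 2 was highest for 10 of 14 genes, with deviations of −0.01, 0.08 and −0.07. Array 2 was the highest for all 7 detected red cell markers, whose deviation there was 0.22. Over all coding genes 38.2%, 21.3% and 40.6% were highest on arrays 1, 2 and 3. Innate cytokine genes had a median SD of 0.40 over the 14 detected of 16, beside 0.38 for immediate early genes. Over all 16 it was 0.50, and levels ran from Ptgs2 (1.45 ± 0.25), Ccl8 (0.99 ± 0.84), Ccl4 (0.05 ± 0.10) and Nos2 (0.01 ± 0.08) down to Il12b (−6.21 ± 1.41).

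**Figure D5:**
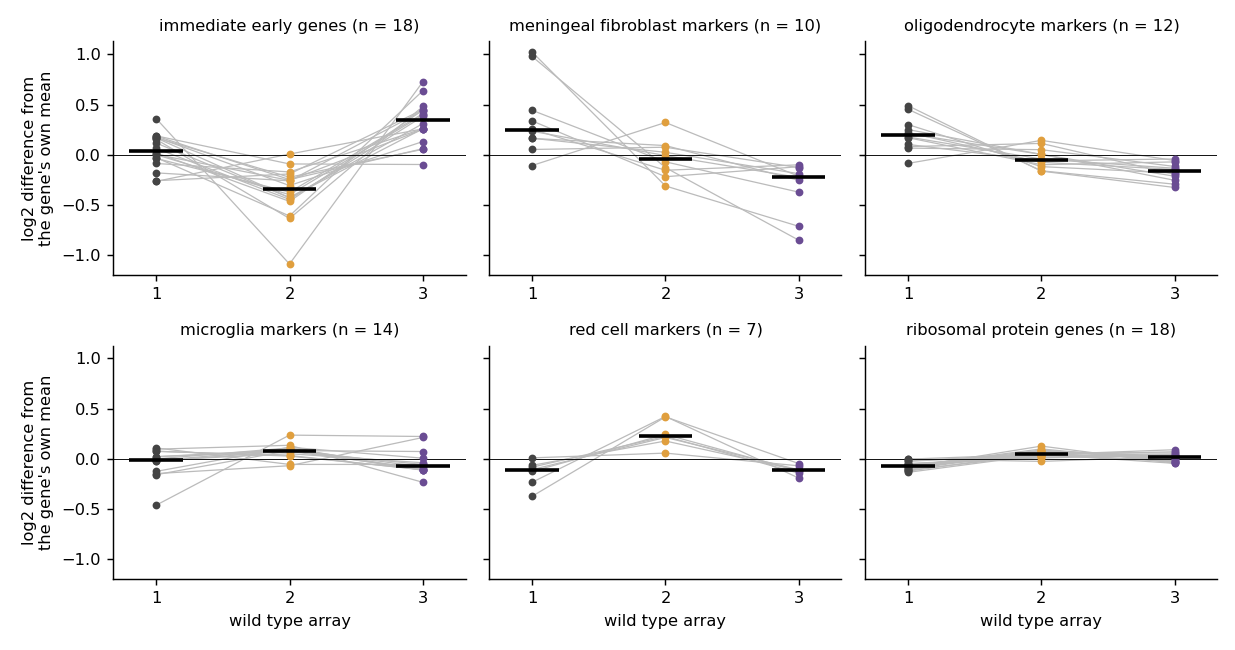
Difference of each detected gene from its own mean (y axis, log2 units) on the 3 wild type arrays (x axis) for 6 gene lists, with grey lines joining the values of a gene and black bars for the median. Immediate early genes are lowest on array 2 for 15 of 18 members, and meningeal and oligodendrocyte markers are mostly highest on array 1. Ribosomal protein genes differ by small steps, with 15 of 18 lowest on array 1.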

How the data were processed

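The deposited scanner files of the 3 wild type arrays hold linear intensity values. Per the file headers the software was Agilent Feature Extraction 12.0.3.1, and per the submitters' processing notes 10.7, with limma. The processed signal had its background subtracted, trends removed and its lowest values set to surrogates, per the file headers. All 3 arrays lay on 1 slide, so slide cannot be examined. The authors' processed value table, log2 by comparison with the scanner values (r between 0.99997 and 0.99999 with log2 processed signal), has column medians of 5.589, 5.589 and 5.588. It was used only as an alternative, since its making is not stated in the labels or headers.

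Control spots (4974 per array) were left out and outlier-flagged spots were set missing. Log2 signals had the 75th percentile of their array subtracted and were averaged per probe. No test was made, since there is 1 group. The number of arrays limits the precision. Scripts were tested on simulated data (Python 3.11.15, pandas 2.3.3, limma 3.58.1 in R 4.3.3 for normexp).

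Of 48467 probes with RefSeq accessions, 48035 took symbols from a table of GRCm38.p6. CircRNA positions were read as GRCm38 because 97.3% lie inside a coding gene, against 35.9% after a shift by 1 Mb. The file headers give mm9 as the genome build of the array grid. Positions were not compared with that build, so the shift does not settle it. No strand or exon was assigned. Named are the 15 brightest per class, the leading and dimmest members of 40 lists with 586 gene names (571 measured), and the widest and narrowest ranges. Some members that this rule names are not reported here. The members and lists were chosen with earlier results of these data known.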

Additional observations from a re-analysis of the deposited data

How the results depend on the processing

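No paired analysis was possible because 1 group was described, with no contrast. The class order by median level, coding above circRNA above lncRNA, was the same with quantile normalization, normexp, the authors' processed value table and each array left out. The coding minus lncRNA difference shrank to 2.24 with normexp and to 3.44 with RefSeq accessions only, and the coding minus circRNA difference to 0.94 with normexp. With probes significantly above background on all 3 arrays, 88.1% of coding, 65.2% of lncRNA and 95.9% of circRNA probes passed, the median SD was 0.133 and 9996 probes spanned over 1 log2 unit. With detection on at least 2 of 3 arrays the shares were 83.9%, 50.01% and 92.0%, and 4849 probes spanned over 1. With RefSeq accessions only, 58.1% of lncRNA probes were detected. Normexp gave a median SD of 0.0700 and 639 wide probes. Leaving out an array gave 82.2 to 83.1% of coding, 46.6 to 47.8% of lncRNA and 90.4 to 91.2% of circRNA probes, differences of 4.76 to 4.81 and 1.25 to 1.29, 847 to 856 coding probes among the 1000 brightest, a median SD of 0.0893 to 0.103 and 1090 to 1921 wide probes. With an array left out, the median SD and the wide probes were taken over the remaining pair of arrays, which lowers both in part by construction. The normexp offset of 50 compresses dim probes by construction. Of the values of named genes and lists, quantile normalization moved 1 of 54 beyond the spread between arrays, normexp 47 and the median over the probes of a gene 52. Of the 100 brightest coding genes, 95 were shared with normexp and 61 with the median over probes.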

Other observations

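The circadian clock genes of this cortex were all detected (17 of 17, beside 84.6% of all coding genes) at a median of 3.54. Their brightest members were the output genes Tef (7.03 ± 0.06) and Dbp (6.01 ± 0.20), the repressor Cry2 (6.47 ± 0.13) and the nuclear receptor Nr1d1 (5.40 ± 0.13), and the dimmest was Bhlhe41 (−0.50 ± 0.08). Array 3 was highest for 11 of the 17 genes and array 1 lowest for 10, where 40.6% and 32.1% of all coding genes were. Glucocorticoid-responsive genes had a median SD of 0.24. The metallothioneins Mt1 (7.47 ± 0.15) and Mt2 (6.69 ± 0.17), Per1 (5.38 ± 0.17) and Tsc22d3 (4.54 ± 0.10) were the brightest, and Fkbp5 (−0.35 ± 0.25) the dimmest. Of 15 interferon and MHC genes 14 were detected, led by B2m (5.01 ± 0.06), Ifi27 (4.74 ± 0.20), H2-K1 (4.33 ± 0.22) and H2-D1 (4.30 ± 0.23). Array 1 was highest for 10 of these 14 and array 3 lowest for 8, where 38.2% and 21.4% of all coding genes were. Mx1 was well above background on no array (−6.91 ± 0.16). T and B lymphocyte genes had a median of −2.62. By the brightest probe Cd3d (2.02 ± 0.03) and Cd3e (1.66 ± 0.03) led them. Their other probes were at −2.94 and −0.36, so these levels depend on the probe. Ms4a1 was dimmest (−5.26 ± 1.44) and was well above background on 2 arrays only. Ependymal cilia markers had a median of −0.49, led by Rarres2 (1.74 ± 0.07).

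Short runs of C and T marked bright probes in each class. By median level over all frequent 7-base motifs, read on the strand of the probe, CTCTCCC ranked 1 in lncRNA probes (278 probes, median 0.85 against −4.99 without it), 1 in circRNA probes (2.03 against −1.39) and 3 in coding probes (2.32 against −0.12). Its reverse complement GGGAGAG had medians of −5.95, −2.01 and 0.14. The cause was not tested.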
